A study of Mus musculus with 2 samples.

Results

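The 10 genes described here encode cytokines: the T helper 2 (Th2) cytokines Il4, Il5 and Il13, the T-cell cytokines Il2, Il10 and Csf2, the tumour necrosis factor (TNF) family members Tnf, Lta and Ltb, and the transforming growth factor gene Tgfb1. They are 10 of 49554 annotated genes, and were listed by name, though with earlier results of these data known. The cytosines used are those of CpG dinucleotides that both libraries covered with 10 or more reads and that lay between 5 kb before and 5 kb after a gene, a stretch called its gene region below. These came to 617 distinct cytosines of 3030488 measured in both libraries on the autosomes and X.

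DNA of peripheral blood cells from mice was assayed by reduced representation bisulfite sequencing (RRBS). In this assay the enzyme MspI cuts at CCGG, and bisulfite turns unmethylated cytosines into T while methylated ones stay C, so the methylation level of a cytosine is the percent of its reads that show C. One library was wild type (WT) and the other came from mice in which the proximal tubular epithelial cells of the kidney express I-PpoI, an endonuclease that cuts both strands of DNA, so the cells measured were not the cells named as expressing the enzyme. Strain, age, sex, the driver of I-PpoI, any inducing treatment and the number of animals behind a library were not given in the labels.

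Il4, Il5 and Il13 lie close together on chromosome 11 and are made by Th2 cells, which drive allergic and anti-helminth responses. Tnf, Lta and Ltb lie side by side in the major histocompatibility complex on chromosome 17, and their products signal inflammation and build lymphoid organs. Tgfb1 is made by many cell types and restrains immune cells. The Th2 cytokine genes are known to stay methylated in cells that do not make them and to lose methylation as Th2 cells mature.

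Promoter sequences are printed for 4 of the genes. The 250 bases before the start were taken from RefSeq, build GRCm38.p6, and are printed 5′ to 3′ on the strand of the gene. Tgfb1 and Ltb are shown because their promoters were measured, with the measured CpGs in capitals, and Il2 and Il5 because nothing was measured there, with all their CpGs in capitals.
Tgfb1 promoter, chr7:25686752-25687001, forward strand: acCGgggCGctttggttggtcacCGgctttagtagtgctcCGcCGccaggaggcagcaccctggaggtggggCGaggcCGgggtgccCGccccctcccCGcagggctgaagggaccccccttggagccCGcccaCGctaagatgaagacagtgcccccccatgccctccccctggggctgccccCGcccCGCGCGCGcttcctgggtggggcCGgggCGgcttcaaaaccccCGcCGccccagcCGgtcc
Ltb promoter, chr17:35194257-35194506, forward strand: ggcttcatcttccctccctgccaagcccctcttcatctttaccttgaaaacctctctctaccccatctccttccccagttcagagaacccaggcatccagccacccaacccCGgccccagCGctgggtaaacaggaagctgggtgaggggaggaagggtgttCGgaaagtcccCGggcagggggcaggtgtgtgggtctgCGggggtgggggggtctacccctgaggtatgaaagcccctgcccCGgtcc
Il2 promoter, chr3:37125955-37126204, reverse strand: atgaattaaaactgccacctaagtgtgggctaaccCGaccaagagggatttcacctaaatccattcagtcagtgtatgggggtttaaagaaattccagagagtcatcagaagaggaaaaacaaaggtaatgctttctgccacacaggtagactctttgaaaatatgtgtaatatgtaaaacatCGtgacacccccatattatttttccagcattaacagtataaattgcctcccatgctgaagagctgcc
Il5 promoter, chr11:53720544-53720793, forward strand: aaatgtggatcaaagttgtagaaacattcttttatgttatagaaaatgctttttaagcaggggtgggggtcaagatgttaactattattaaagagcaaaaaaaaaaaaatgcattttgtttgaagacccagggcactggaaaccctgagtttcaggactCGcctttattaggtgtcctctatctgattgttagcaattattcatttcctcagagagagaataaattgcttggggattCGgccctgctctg
The Tgfb1 promoter held 21 CpGs and 5 CCGG motifs, and all 21 CpGs were measured on at least 1 strand. The Ltb promoter held 6 CpGs and 3 CCGG motifs, and all 6 CpGs were measured. The promoters of Il2 and Il5 held 2 CpGs each and no CCGG, and no cytosine was listed in either library within 5 kb of either gene. CCGG reads the same on both strands, and 47.3% of the 32619 promoters of the same length in the table held it. The promoters of Il13 and Csf2 held 3 and 2 CpGs without a CCGG, that of Tnf 10 CpGs without one, and that of Lta 9 CpGs with 1 CCGG, and none of these 4 promoters had a cytosine measured in both libraries. Il4 has 2 starts in the table, with 1 CpG before one of them and none before the other.

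Cytosines had a median of 53 reads in the WT library and 49 in that of I-PpoI. Of all cytosines measured in both libraries, 41.7% were lower in I-PpoI and 29.2% higher, with a mean difference of -1.49 points. The labelled tissue could be checked only by methylation, since no RNA was measured. It did not part the tissues clearly. Near their starts the leukocyte genes Coro1a and Laptm5 stood at 5.97% and 1.67% in WT, but of 4 kidney proximal tubule genes measured there or at an annotated end, Lrp2 stood at 6.67% and the others from 30.6% to 98.3%. Over gene regions the WT medians were 42.1% for 4 leukocyte genes and 60.8% for 6 kidney genes. With 1 library a group, every p-value below comes from reads and compares these libraries, not the conditions. In a mixture such as blood, a change in the share of a cell type and a change of methylation within a cell type cannot be told apart.

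The 8 gene regions that held measured cytosines ranged in WT from 74.5% at Il4 to 6.36% at Ltb, and each had a lower mean level in I-PpoI, by 0.200 to 10.9 percentage points. For Csf2, Tnf, Lta and Ltb the sign changed under other settings, such as a coverage of at least 20 reads. Below 0 were 8 of 8 of these regions and 81.1% of the 35571 gene regions tested. The regions of Tnf, Lta and Ltb overlap, so the 8 are not separate observations. The median difference of the 8 was -1.54 points, and that of all gene regions was -1.14. Il4 was called lower, which took 10 points or more together with an adjusted p under 0.01, and 2.50% of all gene regions were called lower by the same rule. None of the 8 was called higher, against 0.200% of all gene regions. The test was the Cochran-Mantel-Haenszel chi-square test of methylated and unmethylated reads with each cytosine as a stratum, and its p-values, called chi-square p below, were adjusted over all features of the same kind.

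In order of WT level the regions stood at 74.5% for Il4, 58.1% for Lta, 54.5% for Il13, 37.5% for Il10, 30.1% for Tgfb1, 9.58% for Csf2, 7.90% for Tnf and 6.36% for Ltb. The I-PpoI library gave 63.6%, 54.5%, 48.7%, 35.3%, 29.6%, 8.70%, 7.70% and 6.09% for the same genes, which is the same order. Levels spread widely within a region, with standard deviations over cytosines from 18.9 points at Csf2 to 42.3 at Lta, so that neighbours in this order differed by less than the standard deviation of at least 1 of the pair. Over the 617 cytosines, 230 (37.3%) were lower in I-PpoI, 168 (27.2%) higher and 219 equal. Of all cytosines measured in both libraries, 41.7% were lower and 29.2% higher. The mean over the 617 went from 27.6% in WT to 26.3% in I-PpoI. This difference of -1.31 points was smaller in size than the -1.49 over all cytosines.

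**Figure D1:**
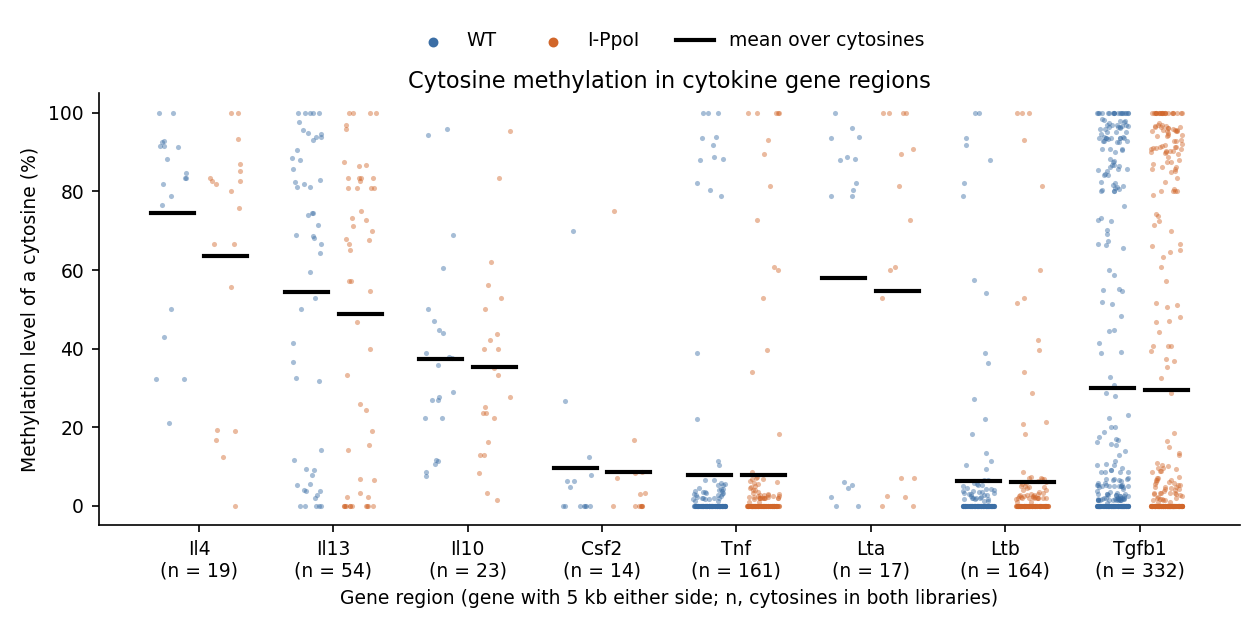
Methylation level (percent) of each measured cytosine in the gene regions of the cytokine genes, WT and I-PpoI in separate colours. Black lines mark the mean over cytosines. The means of Il4 and Il13 differ most, I-PpoI minus WT, by -10.9 and -5.72 points. Those of Tnf and Ltb, whose regions share 156 cytosines, differ least, by -0.200 and -0.267.

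Il4, the cytokine that directs T cells to the Th2 fate and B cells to make IgE, had the largest difference of the 8. Its 19 cytosines had a mean level of 74.5% in WT and 63.6% in I-PpoI, differing by -10.9 points with a counting standard error of 2.85 and an adjusted chi-square p of 9.41e-05. Of them, 12 were lower in I-PpoI and 5 higher. The region was thinly covered, with 410 reads over its cytosines in WT and 393 in I-PpoI, and its difference stood at the 2.66th percentile of all gene regions. Most of its cytosines were highly methylated in WT, 12 of 19 being above 80% and none below 20%.

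The largest difference at Il4 lay in a short stretch inside the gene, chr11:53615381-53615452, between 3213 and 3284 bp after the start. Its 5 cytosines had a mean of 61.5% in WT and 30.2% in I-PpoI over 100 and 116 reads, a difference of -31.3 points (adjusted chi-square p = 1.93e-05). This was the only called stretch of the 28 distinct ones near the 10 genes, where a stretch means at least 3 cytosines with gaps of at most 100 bp and a call needs 25 points, and of the 162371 stretches tested 1.00% were called lower and 0.0905% higher. Along the stretch, from its left end, the cytosines went from 32.3% to 12.5%, from 32.3% to 19.4%, from 100% to 0%, from 100% to 100% and from 42.9% to 19.0%. Thus 4 of 5 were lower and 1 was at 100% in both libraries.

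The cytosine that fell from 100% to 0%, at position 53615391 on the reverse strand, carried much of this. It was methylated in 14 of 14 reads in WT (Wilson 95% interval 78.5% to 100%) and in 0 of 22 in I-PpoI (0% to 14.9%), with an adjusted p of 5.33e-07 by Fisher's exact test over all cytosines. The other strand of the same CpG, at 53615390, stood at 32.3% and 19.4%, so that the strands of this CpG differed by more than 50 points in WT. Without this cytosine the Il4 region differed by -5.96 points (adjusted chi-square p = 0.0139) and the stretch by -14.1 points (adjusted chi-square p = 0.0620), and neither was called. With CpGs whose strands were unlike left out, the Il4 difference was -4.70 points (adjusted chi-square p = 0.0563). The call of the region was also lost on the reverse strand alone, at -10.5 points, with flanks of 10 kb, at -9.45 points, and with a chi-square test scaled by the spread between cytosines (adjusted p = 0.0436), which gave the stretch an adjusted p of 0.502.

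Elsewhere around Il4 the libraries were closer. The 9 cytosines beyond the gene's end, 10067 to 10301 bp after the start, averaged 86.9% in WT and 82.4% in I-PpoI. The 3 cytosines between 1755 and 1884 bp after the start averaged 50% in both libraries. Within 1000 bp of its annotated starts Il4 had 4 cytosines, at 58.3% in both. Outside the called stretch no stretch or cytosine of the Il4 region was called.

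Il13, the Th2 cytokine that acts on airway epithelium and mucus, had 54 measured cytosines and 5 stretches. Its mean level was 54.5% in WT and 48.7% in I-PpoI, differing by -5.72 points (counting standard error 1.30, adjusted chi-square p = 3.98e-10), below the 10 points needed for a call. Of the 54 cytosines, 34 were lower in I-PpoI and 14 higher. The difference depended on how much of the flanks was taken in: it was -0.464 points with flanks of 2 kb (adjusted chi-square p = 0.0164) and -9.49 with none. Unlike Il4, the region mixed 17 cytosines under 20% in WT with 21 above 80%.

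Upstream of Il13, at chr11:53637230-53637466, between 2528 and 2764 bp before the start, each of 16 cytosines was lower in I-PpoI. Their mean was 77.2% in WT and 58.4% in I-PpoI over 715 and 406 reads, a difference of -18.8 points with a counting standard error of 2.86 (adjusted chi-square p = 1.76e-11), short of the 25 points of the rule. Both strands moved: the 8 forward cytosines differed by -20.1 points and the 8 reverse ones by -17.5. At position 53637323, 92 of 92 reads were methylated in WT and 34 of 42 in I-PpoI. At 53637375 the level was 74.4% of 86 reads in WT and 33.3% of 39 in I-PpoI, and this cytosine was called singly (adjusted p = 0.00396, Fisher's exact test). The stretch held no CpG whose strands were unlike, and its adjusted p was 5.17e-04 with the scaled chi-square test.

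The other Il13 stretches differed in size and sign. The stretch nearest the start, 234 to 300 bp into the gene, had 6 cytosines averaging 83.6% in WT and 74.8% in I-PpoI (adjusted chi-square p = 0.00298), but its strands went apart: the 3 reverse cytosines differed by -24.8 points and the 3 forward ones by 7.14. Among the former was the called cytosine 53634468, at 97.6% of 83 reads in WT and 65.2% of 46 reads in I-PpoI (adjusted p = 3.72e-04, Fisher's exact test). The most deeply read stretch, 1670 to 1740 bp before the start, held 20 cytosines at low levels, 13.9% in WT and 12.7% in I-PpoI. Past the gene's end, 3543 to 3583 bp after the start, 7 cytosines averaged 68.8% in WT and 79.5% in I-PpoI, differing by 10.7 points with an adjusted chi-square p of 0.198. The called cytosines of Il13 thus lay upstream of the gene and on the reverse strand near its start. Rises of up to 33.3 points at other single cytosines of the region were not called.

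Il13 also shows how read depth weighs on a regional level. Summing all its reads gave 49.6% in WT and 30.1% in I-PpoI, differing by -19.5 points, enough for a call. The weakly methylated stretch of 20 cytosines supplied 1048 of 2532 reads in WT and 1280 of 2057 in I-PpoI, so that it counted for more of the I-PpoI sum. Equal weights for cytosines remove that shift, and are used for levels and differences here unless reads are said to be summed. The chi-square test instead gives more weight to cytosines with more reads. Its p-value is therefore not a test of the equal-weight difference printed beside it.

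**Figure D2:**
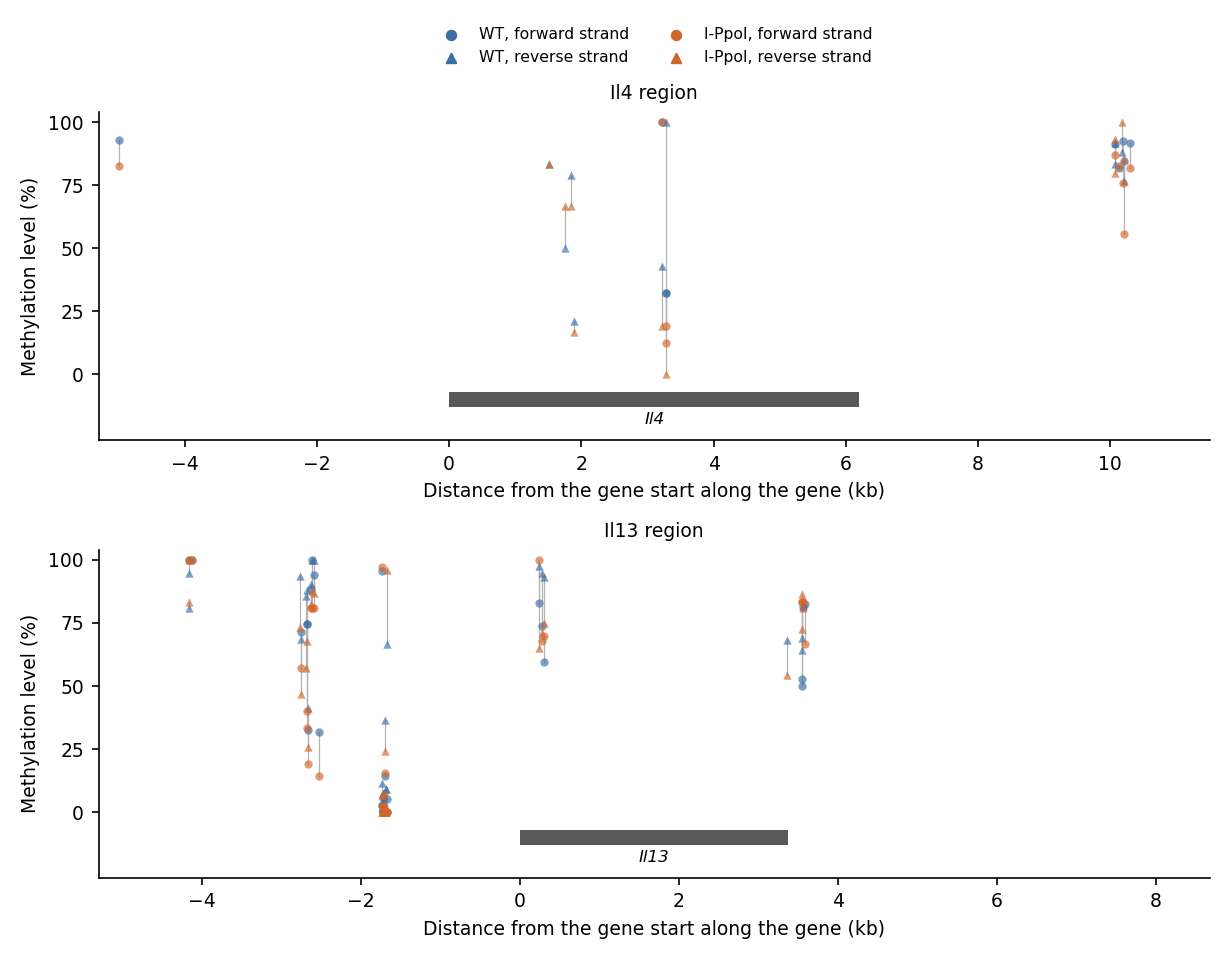
Methylation level (percent) of each measured cytosine around Il4 and Il13 against distance from the gene start along the gene (kb), WT and I-PpoI in separate colours, circles for the forward and triangles for the reverse strand. At Il4 the libraries part about 3.2 kb into the gene, where 1 reverse cytosine falls from 100% to 0%, and at Il13 the 16 cytosines about 2.6 kb upstream all lie lower in I-PpoI.

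Of the genes beside this Th2 locus, Kif3a, which encodes a kinesin motor, had a region at 27.2% in WT and 26.7% in I-PpoI, while Rad50, a double-strand break repair gene lying between Il13 and Il5, stood at 20.5% and 19.9%. Irf1, the interferon response factor on the far side of Il5, stood at 7.22% and 5.92%. None of the 3 was called. Il5, the cytokine that matures eosinophils, had no value itself: the nearest 9 cytosines came in only when the flanks were widened to 10 kb, and differed by -2.49 points (adjusted chi-square p = 0.0804). Il2, the growth factor of T cells, had none, and its neighbours Adad1 and Il21 differed by 5.03 and -2.95 points without a call.

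Il10, the anti-inflammatory cytokine of regulatory T cells, macrophages and Th2 cells, had 23 cytosines at 37.5% in WT and 35.3% in I-PpoI. Of these, 11 were lower and 12 higher, with an adjusted chi-square p of 0.159 for the region. Its strand was not in the tables used, so positions count from its left end. The largest stretch difference was 857 to 951 bp from that end, where 4 cytosines averaged 47.7% in WT and 43.0% in I-PpoI (adjusted chi-square p = 0.0689). Single cytosines of the region differed by -27.8 to 28.5 points, and none was called. The forward cytosine 131020702 was methylated in 26 of 116 reads in WT (22.4%) and 2 of 129 in I-PpoI (1.55%). It differed by -20.9 points (adjusted p = 7.34e-05, Fisher's exact test), under the 25 points of the rule. Its reverse partner stood at 96.0% and 95.5%, so the strands of this CpG were unlike in both libraries. Il10 thus had cytosines at intermediate levels in both libraries, 16 of 23 between 20% and 80% in WT, and no region or stretch called.

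Csf2, the granulocyte-macrophage colony-stimulating factor, had 14 cytosines and was nearly unmethylated inside the gene. The 9 cytosines 370 to 622 bp after its start averaged 1.38% in WT and 1.63% in I-PpoI over 356 and 253 reads. The 4 cytosines 4272 to 4409 bp upstream averaged 12.9% and 8.04%, on 63 and 49 reads, with an adjusted chi-square p of 0.857. The region as a whole differed by -0.880 points with a counting standard error of 2.42, so neither direction was resolved at this depth. Its region also takes in the start of the annotated gene Gm12223. Of the cytokine genes described here that lie on chromosome 11 and were measured, Csf2 had the lowest WT level.

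Tnf, Lta and Ltb were read as a single locus, since their regions overlap: the Tnf and Ltb regions shared 156 cytosines, Tnf and Lta 11, and Ltb and Lta 6, for 175 distinct ones. Tnf, the main inflammatory cytokine of macrophages, had 161 cytosines at 7.90% in WT and 7.70% in I-PpoI (adjusted chi-square p = 0.234). Ltb, which anchors lymphotoxin at the cell surface, had 164 at 6.36% and 6.09% (adjusted chi-square p = 0.358). Lta, the secreted lymphotoxin, had 17 at 58.1% and 54.5% (adjusted chi-square p = 0.331). No region, gene start, stretch or single cytosine of the locus was called in either direction. Among the alternatives, with CpGs of unlike strands left out, the Lta region differed by -10.5 points (adjusted chi-square p = 0.00466) and was called lower. Summing all its reads gave -7.58 points (adjusted p = 0.00296, Fisher's exact test), and a coverage of at least 20 reads gave 1.02, the opposite sign.

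The bulk of this locus was 1 unmethylated stretch of 140 cytosines in the body of Ltb, 1013 to 1801 bp after its start. It averaged 1.90% in WT and 1.97% in I-PpoI over 10136 and 8764 reads, a difference of 0.0693 points with a counting standard error of 0.251. Since the Tnf region takes in the same stretch, the Tnf and Ltb regional levels mostly repeat it. The Tnf gene itself held 4 cytosines, 1305 to 1354 bp after its start, at 42.5% in WT and 47.7% in I-PpoI. With flanks of 2 kb the Tnf region held 11 cytosines and differed by -6.085 points (adjusted chi-square p = 0.487).

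In the Ltb promoter printed above, the 10 measured cytosines averaged 21.3% in WT and 23.8% in I-PpoI, differing by 2.51 points (adjusted chi-square p = 0.00231), under the 10 points of the rule. The average hides a split by motif and strand. The CpG 139 bp before the start stood at 1.65% and 7.21% on the sense strand and at 100% in both libraries on the antisense strand, and the CpG 77 bp before it at 91.9% and 93.1% on the sense strand. The antisense cytosine of that CpG, 35194431, was higher in I-PpoI but not called, at 11.4% of 114 reads in WT and 33.9% of 112 in I-PpoI (adjusted p = 0.00784, Fisher's exact test). The cytosines of the 3 CpGs outside CCGG were between 0% and 4.04% in both libraries. With unlike CpG pairs left out the promoter differed by -0.698 points, the opposite sign.

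Lta and Tnf had more methylated cytosines between and beyond the genes. The 5 cytosines 977 to 1057 bp before the Tnf start averaged 90.3% in WT and 84.6% in I-PpoI, with an adjusted chi-square p of 0.994. Of these, 3 lay within 1000 bp of the start, at 92.4% and 77.9% over 47 and 60 reads (adjusted chi-square p = 0.0929). The 6 cytosines 4833 to 4908 bp before the Lta start averaged 32.2% and 33.3%, and the 7 cytosines 4600 to 4709 bp before the Ltb start 30.9% and 24.9%. A reverse cytosine between Ltb and Tnf, 35199220, stood at 93.5% of 62 reads in WT and 52.9% of 17 in I-PpoI, with an adjusted p of 0.0225 by Fisher's exact test. None of these stretches or cytosines was called.

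**Figure D3:**
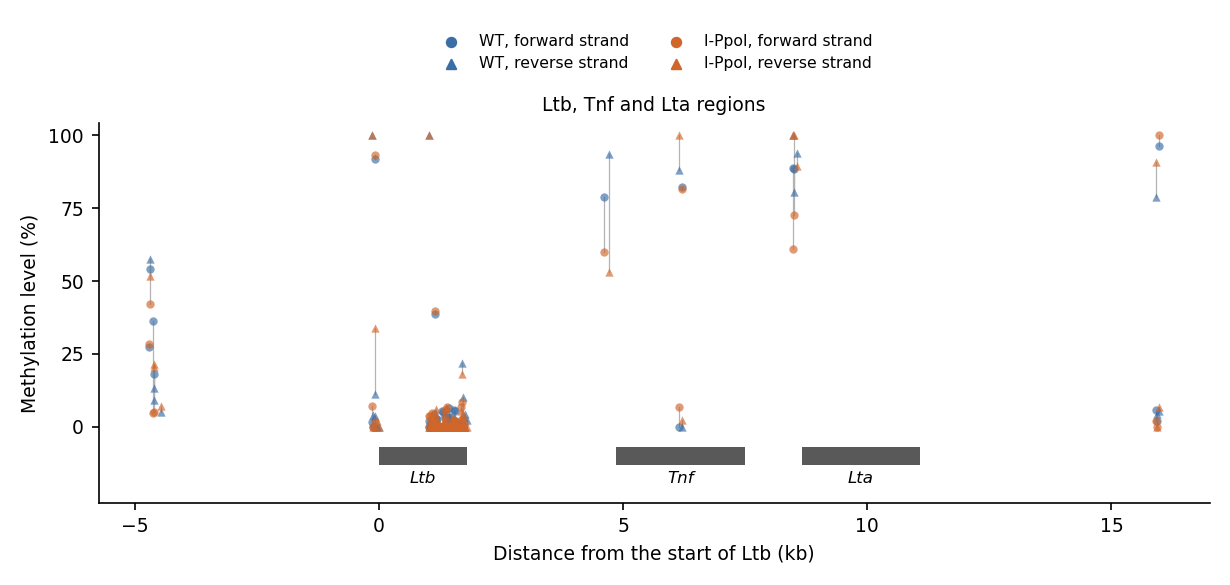
Methylation level (percent) of each measured cytosine over the Ltb, Tnf and Lta regions against distance from the start of Ltb (kb), WT and I-PpoI in separate colours, circles for the forward and triangles for the reverse strand. The 140 cytosines in the body of Ltb lie near 0% in both libraries, at means of 1.90% and 1.97%.

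Tgfb1 had the most measured cytosines of the 10 genes, 332, in 8 stretches. Its region stood at 30.1% in WT and 29.6% in I-PpoI, differing by -0.503 points (counting standard error 0.292, adjusted chi-square p = 7.36e-05), far from the 10 points of the rule. Summing all reads gave 24.8% in WT and 19.1% in I-PpoI, differing by -5.66 points (adjusted p = 4.41e-46, Fisher's exact test), also under 10 points. Of its cytosines, 127 were lower in I-PpoI and 83 higher. The region held 215 cytosines under 20% in WT and 83 over 80%, with 34 between. Its neighbour B9d2, a ciliary gene 440 bp away, stood at 8.39% in WT and 7.74% in I-PpoI.

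From its promoter to 2752 bp after the start Tgfb1 was nearly unmethylated in both libraries, and further into the gene it was methylated. The stretch across the start, from 248 bp before it to 435 bp after it, averaged 9.05% in WT and 8.0% in I-PpoI over 85 cytosines. The next 102 cytosines, the most deeply read of this gene with 9620 and 9330 reads, averaged 8.0% and 8.06%. At 9912 to 10240 bp, 21 cytosines averaged 95.5% and 94.4%, and at the gene's end, 17768 to 18313 bp after the start, 64 cytosines averaged 82.1% and 83.5%. The step from low to high along the gene was present in both libraries and larger than the difference between them in any stretch of the gene.

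In the Tgfb1 promoter printed above, the cytosines outside CCGG were between 0% and 6.67% in both libraries. Those in CCGG spread from 0% to 100%. The CpG 6 bp before the start stood at 100% of 14 reads in WT and 57.1% of 21 in I-PpoI on the sense strand, and at 10.5% and 8.62% on the antisense strand. The CpG 227 bp before the start was lower in I-PpoI on both strands, at 17.6% and 5.79% on the sense strand and 54.7% and 37.3% on the antisense strand, and the CpG 172 bp before it was higher on the sense strand, at 28.6% and 51.6%. None of these cytosines was called. Within 1000 bp of the start the 97 cytosines averaged 9.14% in WT and 8.11% in I-PpoI (adjusted chi-square p = 0.00324).

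Past the 3′ end of Tgfb1, at chr7:25707637-25707715, 12 cytosines 20635 to 20713 bp after the start averaged 30.1% in WT and 21.9% in I-PpoI over 973 and 1024 reads. This difference of -8.20 points (adjusted chi-square p = 8.05e-07) was strand-specific, at -15.8 points over the 6 forward cytosines and -0.627 over the 6 reverse ones. At the called forward cytosine 25707678 the level was 39.0% of 77 reads in WT and 6.06% of 66 in I-PpoI (adjusted p = 9.55e-04, Fisher's exact test). A further called cytosine, 25704923 on the reverse strand at the gene's end, stood at 96.8% of 63 reads and 70.0% of 60 reads (adjusted p = 0.00678, Fisher's exact test). Between 6562 and 6605 bp after the start, 3 cytosines went the other way, from 84.6% to 96.7%, on 58 and 34 reads (adjusted chi-square p = 0.344).

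**Figure D4:**
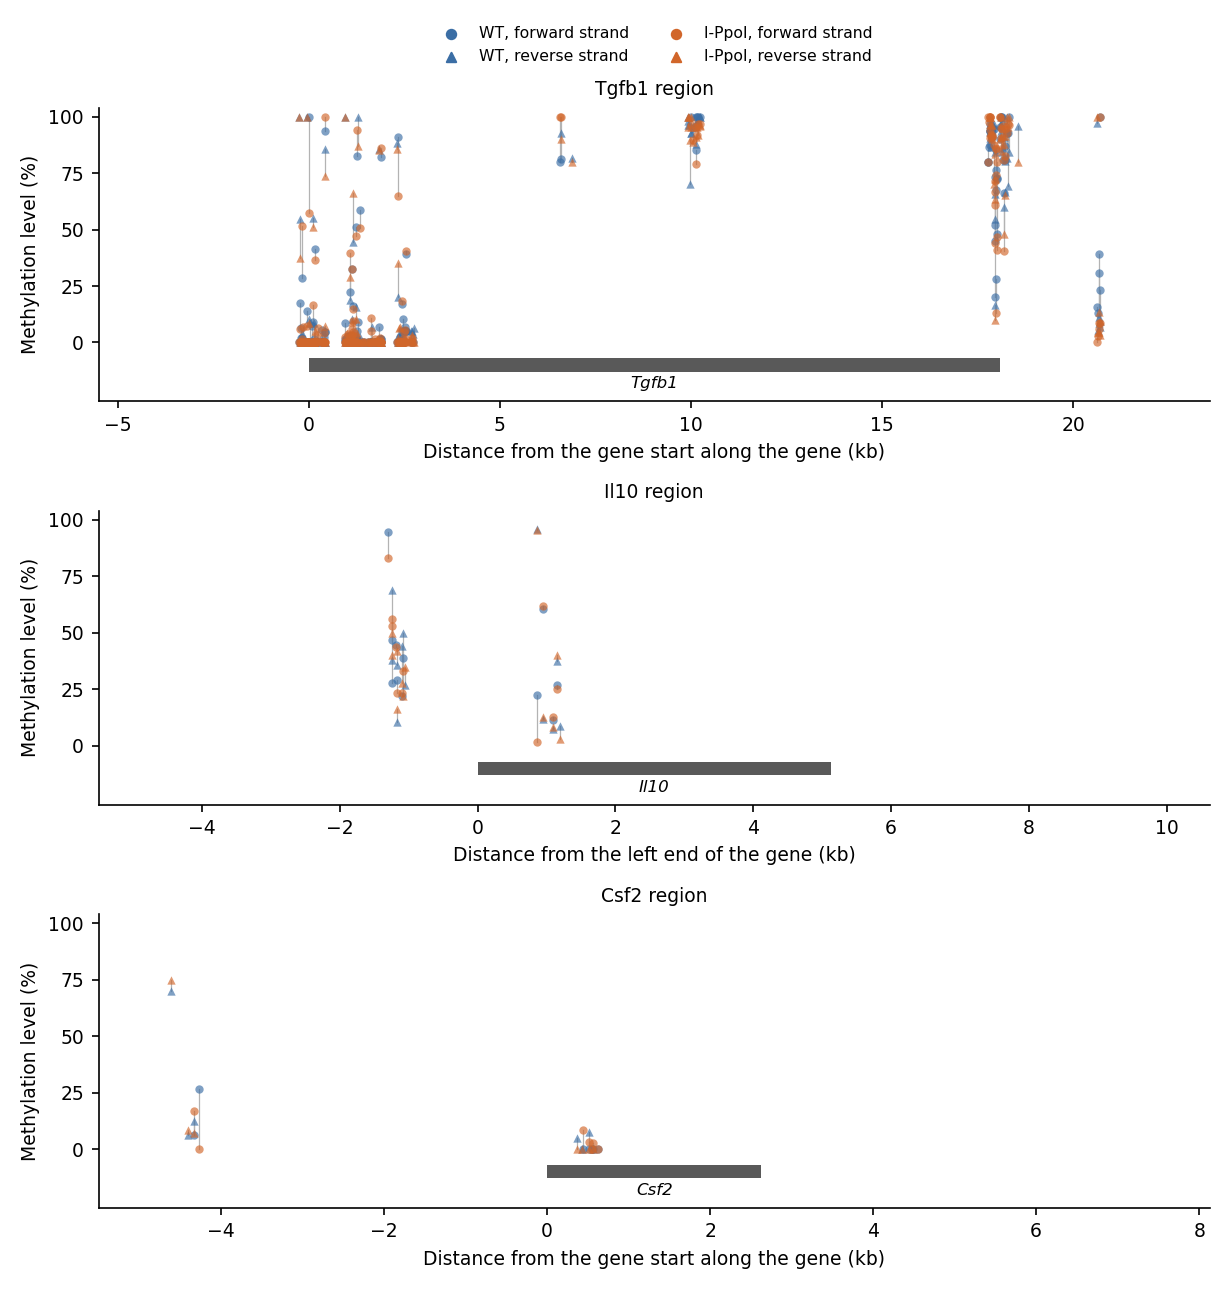
Methylation level (percent) of each measured cytosine around Tgfb1, Il10 and Csf2 against distance from the gene start, or for Il10 from its left end (kb), WT and I-PpoI in separate colours, circles for the forward and triangles for the reverse strand. Tgfb1 steps from 9.05% across its start to 95.5% about 10 kb into the gene in WT, with 8.0% and 94.4% in I-PpoI.

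In all, 5 of the 617 cytosines were called lower in I-PpoI and none higher, where a call took 25 points or more together with an adjusted p under 0.01 by Fisher's exact test. Of all cytosines, 0.437% were called lower and 0.0594% higher. The 5 were 1 at Il4, 2 at Il13 and 2 at Tgfb1. By 10 points, 7 would be called lower and 1 higher, the latter being the Ltb promoter cytosine. No gene start was called, nor the left end of Il10, against 2.74% of all gene ends called lower and 0.306% higher. Of the 7 measured, 3, the starts of Il13, Ltb and Tgfb1, had an adjusted chi-square p under 0.01.

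Cytosines were also sorted by the mean level of both libraries, which by itself puts a strongly changed cytosine in the middle class, so the classes are not ranked by their differences. Of the 82 cytosines near these genes with a mean level between 20% and 80%, 51 were lower, and their mean went from 53.3% in WT to 47.0% in I-PpoI. The 365696 such cytosines of the genome went from 53.8% to 47.8%, with 61.3% lower against 62.2% of the 82. At Il4 and Il13 together 25 such cytosines went from 61.9% to 48.4%, with 19 lower. The 10 of Tnf, Lta and Ltb went from 50.9% to 39.3%, with 7 lower. The 31 of Tgfb1 went from 53.1% to 51.5%, the 15 of Il10 from 39.9% to 38.5% and the 1 of Csf2 from 70% to 75%. Coverage moved with level too: above 80%, cytosines of the 10 genes had 0.695 times as many reads in I-PpoI as in WT, and below 20% they had 0.951 times as many, against 0.684 and 0.930 over the genome. The part of coverage in the differences was not tested.

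The strands of a CpG did not always give like levels. Of 250 CpGs near these genes measured on both strands, 30 (12%) had strands at least 50 points apart in a library, and over the genome 6.92% of 1238075 did. By gene region there were 18 of 126 at Tgfb1, 4 of 7 at Lta, 5 of 75 at Tnf, 5 of 76 at Ltb, 2 of 5 at Il4, 2 of 24 at Il13, 1 of 10 at Il10 and 0 of 4 at Csf2, with CpGs shared by overlapping regions counted in each. In the promoter sequences of all genes, 51.5% of 24584 CpGs inside CCGG were unlike and 0.0391% of 140541 other CpGs, so unlike strands were nearly confined to the MspI site there. Whether the called Il4 CpG lies in a CCGG was not read, because sequence was used for promoters alone. Both strands were lower at 41 of the 250 CpGs and higher at 24, and at Il13 the figures were 10 and 2 of 24. Over the genome both strands were lower at 243698 of the 1238075 CpGs and higher at 124319. Each of these is a larger share than among the 250.

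The receptors of these cytokines had 17 measured gene regions and none was called, with a median difference of -1.90 points against -1.14 over all gene regions. Csf2ra, the alpha chain of the receptor for the Csf2 product, stood at 20.2% in WT and 16.9% in I-PpoI, while Tgfbr2, the ligand-binding TGF-beta receptor, was at 28.9% and 27.2%. At the ends of the receptor genes, 1 of 12 was called lower, the left end of Csf2rb, the shared beta chain, at 57.1% and 47.1%. Signalling and transcription factors had 22 measured regions, none called, with a median of -1.24 points. Gata3, the master regulator of Th2 cells, stood at 20.1% in WT and 17.6% in I-PpoI, while Smad7, an inhibitor of TGF-beta signalling, was at 20.2% and 19.3%. Of 17 other cytokine genes with a measured region, Il22 alone was called, at 96.8% in WT and 61.8% in I-PpoI over 8 cytosines, and the list's median was -1.56 points. None of these 3 lists had a gene called higher.

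Markers of the blood cell types bear on any mixture and were read the same way. Of 13 neutrophil genes 11 had a measured region, all 11 were lower in I-PpoI, and 6 were called. Of all gene regions, 81.1% were below 0 and 2.50% were called lower. The largest neutrophil differences were at Mmp8 (-34.6 points, 5 cytosines), Camp (-26.4, 6 cytosines) and Cxcr2 (-22.9, 11 cytosines). The smallest was -0.0325 points at Ngp, and the list median was -16.0. The neutrophil regions had a median level of 65.4% in WT and 51.0% in I-PpoI. Of 7 monocyte genes, Lyz2 was called at -10.4 points. None was called of 9 T-cell, 8 B-cell, 4 natural killer cell and 4 erythroid or platelet genes, with medians of -0.850, -0.742, -1.85 and -3.40 points, nor of 4 leukocyte genes and 6 kidney proximal tubule genes, with medians of -1.17 and -0.568. The T-cell genes are those of the cells that make most of these cytokines, and their regions ranged from -4.77 to 4.18 points. Bcl11b, a T-lineage transcription factor, had 45.4% in WT and 43.3% in I-PpoI, and Tcf7, another, 23.4% and 22.6%. The part of the neutrophil difference in the values at Il4 and Il13 was not tested.

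**Figure D5:**
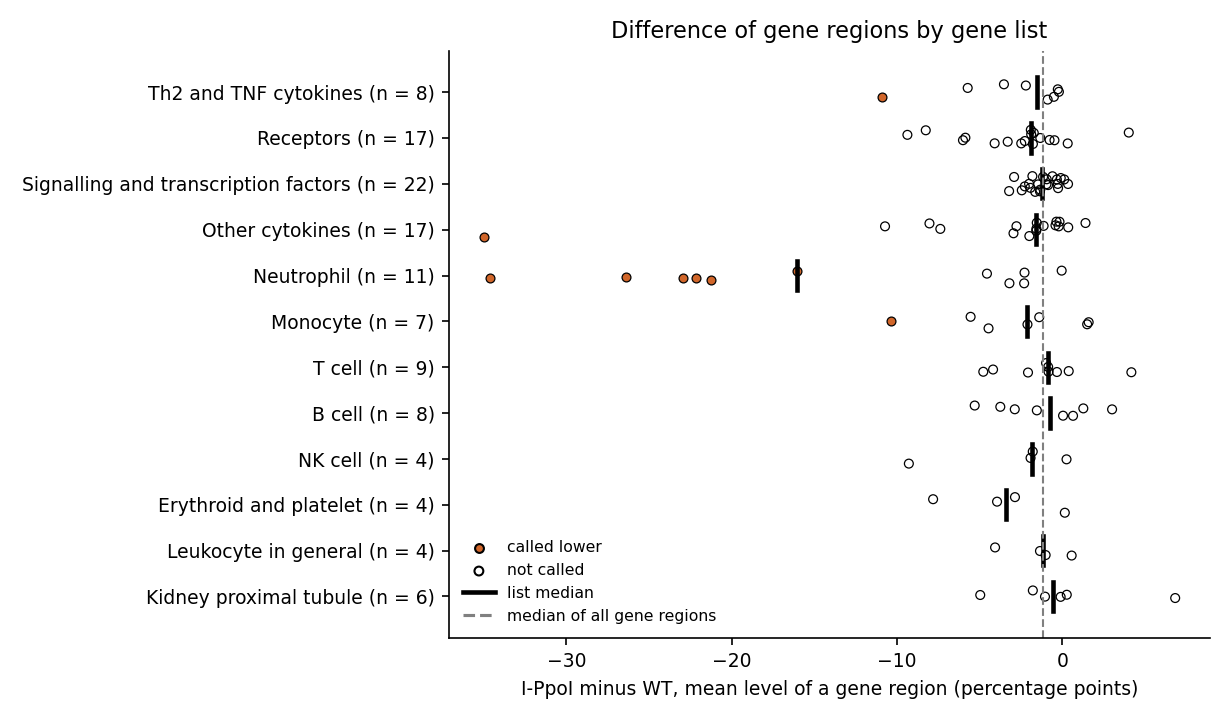
Difference of each gene region, I-PpoI minus WT (percentage points), by gene list, filled points for called regions and a bar for the list median, with a dashed line at the median of all gene regions. The neutrophil genes have a median of -16.0 points, while the cytokine genes, with a median of -1.54, lie near the dashed line at -1.14.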

How the data were processed

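Methylation was measured by RRBS in 1 WT and 1 I-PpoI library of mouse blood cells, grouped by the labels. Per the file headers, the deposited count for each CpG cytosine is its read coverage, and the deposited percent values give the share of reads with C and with T. The product of coverage and percent C was whole, within 1e-06, for 100% of cytosines and gave the methylated reads. The submitters' processing notes name methylKit. Aligner, build, trimming and duplicate removal: not given in the sources used here. Of the cytosines falling in RefSeq GRCm38.p6 promoter sequences, 100% of 214199 on the forward and 99.9% of 213818 on the reverse strand were at CG, so that build was used for genes.

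Levels of regions are means over cytosines with equal weight. Gene regions and gene ends (within 1000 bp of a start, or of each annotated end where no start was given) needed 3 cytosines. Regions, gene ends and stretches were compared by the Cochran-Mantel-Haenszel chi-square test and cytosines by Fisher's exact test, two-sided, each with Benjamini-Hochberg adjustment over all features of its kind, in Python 3.11.15 with SciPy 1.17.1. The code was tested on simulated data. Intervals are Wilson 95% and standard errors binomial; both cover counting error only, and reads over neighbouring cytosines are not independent. There were no replicates.

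The genes and lists were chosen with earlier results of these data known. Of each list, up to 3 called genes were named, or, for receptors, signalling genes and T cells, the 2 with the most reads. Of each gene, called stretches were named, or else the largest and the most deeply read one. Other stretches and cytosines, including those at Ltb, Il13 and Tgfb1 that were not called or were described by strand, were chosen after their values were seen. Alternatives changed coverage, strand, depth, flanks, thresholds, weighting and test.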

Additional observations from a re-analysis of the deposited data

How the results depend on the processing

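No paired analysis was possible because there was 1 library a group. Among the 8 gene regions, Il4, Il13, Il10 and Tgfb1 were lower in I-PpoI under every alternative run, while Csf2, Tnf, Lta and Ltb changed sign under some. With at least 20 reads a cytosine, Csf2 differed by 1.16 points, Tnf by 0.286, Lta by 1.02, Ltb by 0.0024 and the stretch 4833 to 4908 bp before Lta by -0.990, and 0 stretches and 1 gene start, that of Il13, were called lower. With at least 30 reads these were 2.93, 0.454, 2.0, 0.326 and -2.20 points, with 0 regions and 0 stretches called, since Il4 kept too few cytosines. On the forward strand alone, 0 stretches were called, the start of Il13 differed by 7.14 points, its stretch 1670 to 1740 bp upstream by 0.0122 and the Lta stretch by -0.718. On the reverse strand alone, 0 regions, 0 stretches and 1 gene start, again Il13, were called, and Tnf differed by 0.141, Ltb by 0.143, the Csf2 start by -3.11, the stretch before Tnf by 5.11 and the stretch upstream of Ltb by 4.50. Thinned to equal coverage, the Csf2 start differed by -0.493 and the Ltb body by -0.0956, and 3 cytosines were called lower. Without CpGs of unlike strands, an alternative added after seeing the data, 0 stretches were called, the Ltb promoter differed by -0.698, and the 1 region called was Lta, at -10.5, in place of Il4, at -4.70. Pooled reads with Fisher's exact test called 2 regions and 1 gene start lower, adding Il13 to both, with Lta at -7.58, Tgfb1 at -5.66, Csf2 at 0.128, the Lta stretch at -0.626 and the most deeply read Tgfb1 stretch at -0.400. With the test scaled by the spread between cytosines, 0 regions and 0 stretches were called. With flanks of 2 kb Il13 differed by -0.464 against -5.72, Csf2 differed by 0.244 and Ltb by 0.232, with 10 kb Csf2 differed by 1.89 and 0 regions were called, and without flanks Il13 differed by -9.49, Csf2 differed by 0.244, Tnf by 5.20 and Ltb by 0.0857. Without the called Il4 cytosine, also added after seeing the data, 0 regions and 0 stretches were called. A minimum of 5 points called 2 regions, Il4 and Il13, a minimum of 10 points called 2 stretches and 1 higher cytosine, gene ends of 2000 bp called 1, that of Il4, and summing strands called 3 CpGs lower. The cause of these changes was not tested. Over the genome, 890 regions were called lower and 71 higher, against 2315 and 116 with pooled reads, 264 and 8 with the scaled test, and 2706 and 212 at 5 points, and 582 lower at 30 reads. Stretches called were 1629 lower and 147 higher, against 720 and 53 at 20 reads, 441 and 27 at 30 reads, 148 and 11 with the scaled test, and 8649 and 908 at 10 points. Gene ends called were 725 and 81, against 200 and 15 with the scaled test, and 51 higher within 500 bp. Cytosines called were 13236 and 1801, against 20372 and 3407 at 10 points, 5902 and 915 when thinned, and 6023 and 721 with strands summed. Depth limits Il4 and Csf2 most, with a median coverage of 19 and 22 reads in WT and 22 and 13 in I-PpoI.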

Other observations

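Some cytosines near these genes were listed in a single library and entered no comparison. Around Csf2, 6 were listed in WT and none in I-PpoI, and the 6 had a mean level of 65.2% in WT, against 9.58% for the 14 measured in both. Around Tgfb1, 23 were listed in WT alone, at a mean of 28.7%, and 12 in I-PpoI alone, at 11.1%. Il4 had 3 such cytosines in WT, at 98.3%, and 4 in I-PpoI, at 80.7%, and Il13 had 4 in WT, at 63.1%, and 6 in I-PpoI, at 10%. Il10 had none in either library.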
